A study of Mus musculus with 8 samples.

Results

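The genes described here mark adipocyte progenitors, the cells of fat tissue from which new adipocytes form, and they were read in the stromal vascular fraction (SVF) of gonadal WAT. The members were the rows of the deposited gene count table whose gene name was Pdgfra, Pdgfrb, Dpp4, Pi16, Icam1, Pparg, Cebpa, Fabp4, Ly6c1 or F3. Each name was found on a single row, which gave 10 of the 54532 genes in the table. Pdgfra and Pdgfrb were taken as pan-progenitor genes, Dpp4 and Pi16 as genes of stem-like progenitors, and Icam1, Pparg, Cebpa and Fabp4 as genes of committed preadipocytes. Ly6c1 stood for fibro-inflammatory progenitors and F3 for the regulatory progenitors that carry this surface protein.

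Progenitors of WAT lie between and around the adipocytes and the vessels, and most of them carry the receptor PDGFRα on their surface. They are thought to pass from a multipotent state marked by DPP4 and PI16 to a committed state marked by ICAM1, in which PPARγ and C/EBPα switch on the genes of the adipocyte, FABP4 among them. Other progenitors of the same depot resist this path: fibro-inflammatory progenitors carry Ly6C and make chemokines and matrix, and regulatory progenitors carry F3 and hold back the differentiation of their neighbours. Most of these genes are also used by other cells of the SVF. FABP4 and ICAM1 are made by endothelial cells, Ly6C by endothelial cells and leukocytes, PDGFRβ by mural cells of the vessels, and C/EBPα and PPARγ by myeloid cells.

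Male C57BL/6J mice without a transgene or gene deletion were used, and the series text gives 6 weeks as the age at the start of the diet, while the methods of the study give another age. All mice were fed a HFD (60% of calories from fat) during 12 weeks, grouped by a glucose tolerance test, and moved to a NCD (16% of calories from fat). In the 6 weeks on NCD, which ended at week 18, they were given a dose of 2 mg/kg at intervals of 2 weeks, either of an isotype control Ab or of an anti-BAFF Ab, which neutralizes a survival factor of B cells. One library of SVF RNA was analysed per mouse, from 4 mice given control Ab (numbered 1, 2, 6 and 9) and 4 given anti-BAFF Ab (numbered 5, 7, 8 and 10).

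The deposited values were whole counts per gene, with 13562340 to 18548024 counts per mouse. CPM below means counts scaled to a common library size (TMM), and at these totals 3 counts, taken as the lowest level the depth can show, equal 0.162 to 0.221 CPM. Control Ab-treated mouse 1 stood apart from the others: the chi-square per degree of freedom over all genes was 59.96 to 77.35 between it and the other control Ab-treated mice, against 7.914 to 36.74 in the other pairs of a group. The summed level of 10 macrophage genes was 13326 CPM in this mouse and 8357 to 11005 CPM in the other mice. More than any other gene of the list, Lyz2 made up this sum (7686 CPM in mouse 1), and in the mean log2 CPM of the same genes mouse 1 (8.94) was just below control Ab-treated mouse 2 and anti-BAFF Ab-treated mouse 5 (8.95 in each). Its sums of 10 endothelial genes (1008 CPM), 10 mural genes (556 CPM), 10 mesothelial genes (374 CPM) and 12 pan-progenitor and fibroblast genes (13191 CPM) were the lowest of the 8 mice. The part that this mouse or its cell makeup has in any result was not tested. Values without it are given beside the treatment differences that moved most and the relations that had the smallest p; the group means, list medians and most similar genes are given with all 8 mice. Two-sided tests across all genes were made with edgeR's quasi-likelihood test, for 15963 genes. At an adjusted p of 0.05, 9 genes were lower with anti-BAFF Ab and 0 higher, and at an unadjusted 0.05 the numbers were 198 and 106.

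For none of the 10 progenitor genes did the difference between the treatments pass the test. In edgeR's quasi-likelihood test, 0 of 10 passed an adjusted p of 0.05, where 0.0564% of all genes tested did, and 0 of 10 passed an unadjusted p of 0.05, where 1.9% of all genes did. DESeq2 and limma also called 0 of the 10. The 2 groups of 4 mice overlapped for all 10 genes, a description only, since the share of all genes tested whose groups overlap was not computed. The log2 fold changes lay on both sides of 0, with 5 genes above and 5 below. The median log2 fold change of the 10 genes, anti-BAFF Ab over control Ab, was 0.01, and that of all genes tested was 0.00. The 95% intervals of the 10 fold changes together reached from 0.646-fold to 1.56-fold, so that differences beyond these bounds lay outside the interval of every member. In bulk RNA, fewer cells of a type and less RNA per cell cannot be told apart.

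**Figure D1:**
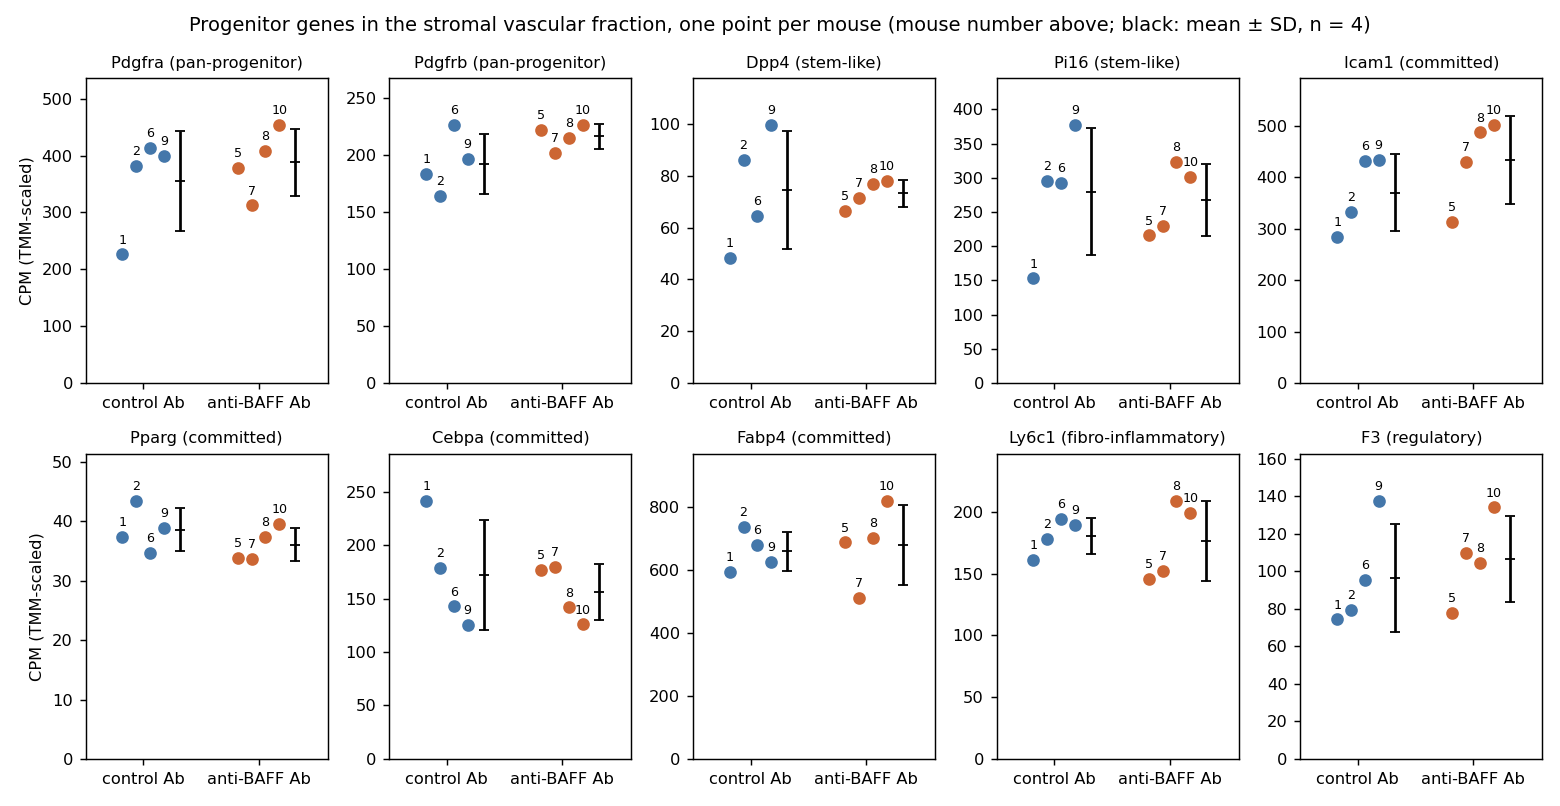
CPM (vertical axis, TMM-scaled, from 0) of the 10 progenitor genes in each mouse, in 1 panel per gene, with the mouse number above each point and the mean ± SD of 4 mice as a black bar. The control Ab-treated (blue) and anti-BAFF Ab-treated mice (orange) overlap in all 10 panels, and control Ab-treated mouse 1 is the lowest point for Pdgfra, Dpp4, Pi16, Icam1 and F3 and the highest for Cebpa.

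Pdgfra encodes the PDGF receptor α chain, the most used surface marker of adipose progenitors (gene ENSMUSG00000029231, chromosome 5, 75152292 to 75198215, plus strand; mm10 is the build in the submitters' processing notes, and coordinates are taken from the deposited table throughout). Its level was 226, 381, 414 and 399.7 CPM in mice 1, 2, 6 and 9 of the control Ab group, and 378, 312, 408 and 454 CPM in mice 5, 7, 8 and 10 of the anti-BAFF Ab group. Mouse 1 had the lowest level of the 8 mice, and only anti-BAFF Ab-treated mouse 10 exceeded the highest control Ab-treated mouse. The group means were 355 ± 87.1 CPM with control Ab and 388 ± 59.2 CPM with anti-BAFF Ab (SD, n = 4 each). The log2 fold change was 0.13 (95% interval -0.31 to 0.56; adjusted p = 1.00 in edgeR), and -0.06 without control Ab-treated mouse 1, which turned its sign.

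Pdgfrb encodes the PDGF receptor β chain, which progenitors share with mural cells (ENSMUSG00000024620, chromosome 18, 61045150 to 61085061, plus strand). It was found at 183, 164, 226 and 196 CPM in the control Ab-treated mice and at 222, 201, 215 and 226 CPM in the anti-BAFF Ab-treated mice, in the same order of mice. All 4 anti-BAFF Ab-treated mice were above 3 of the 4 control Ab-treated mice, and mouse 6 of the control group was at the top of both groups. Of the 10 genes it had the smallest unadjusted p (0.139 in edgeR), with a log2 fold change of 0.17 (95% interval -0.07 to 0.40). When control Ab-treated mouse 6 was left out, the log2 fold change was 0.26 with an unadjusted p of 0.0243 and an adjusted p of 1.00 (edgeR), the single member past an unadjusted 0.05 in any alternative. Without control Ab-treated mouse 2 it was 0.10 (unadjusted p = 0.3404 in edgeR). The summed level of the 10 mural genes, which include Rgs5 and Acta2, was 556 to 1440 CPM with control Ab and 842 to 1137 CPM with anti-BAFF Ab, none of these genes was at 0 in any mouse, and their part in the Pdgfrb level was not tested in the fit.

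Dpp4 encodes dipeptidyl peptidase 4, a surface peptidase that marks the multipotent progenitors of the interstitium around fat lobules (ENSMUSG00000035000, chromosome 2, 62330073 to 62412231, minus strand). The levels were 48.3, 86.1, 64.5 and 99.5 CPM with control Ab (mice 1, 2, 6 and 9) and 66.4, 71.3, 76.7 and 78.1 CPM with anti-BAFF Ab (mice 5, 7, 8 and 10). The anti-BAFF Ab-treated mice lay close together and inside the range of the control Ab-treated mice, so the means were nearly equal (74.6 ± 22.7 CPM and 73.2 ± 5.34 CPM; SD, n = 4 each) while the spread was not; the difference in spread was not tested. The log2 fold change was -0.03 (95% interval -0.47 to 0.42), and its sign turned in several alternatives, given in the closing section.

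Pi16 encodes peptidase inhibitor 16, a secreted protein that marks the same multipotent cells (ENSMUSG00000024011, chromosome 17, 29318877 to 29329413, plus strand). The 4 control Ab-treated mice had 153, 295, 292 and 377 CPM and the 4 anti-BAFF Ab-treated mice 216, 229.7, 324 and 301 CPM. Mouse 1 was again the lowest and mouse 9, also of the control group, the highest, so that all anti-BAFF Ab-treated mice fell between a pair of control Ab-treated mice. On the log2 scale the difference was -0.06 (95% interval -0.63 to 0.51), the widest interval of the 10 genes. Without control Ab-treated mouse 1, the log2 fold changes of Pi16 and Dpp4 were -0.28 and -0.21, with unadjusted p of 0.118 and 0.166 in edgeR.

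Icam1 encodes an adhesion molecule that leukocytes bind and that marks preadipocytes committed to the adipocyte path (ENSMUSG00000037405, chromosome 9, 21015985 to 21028817, plus strand). Its levels were 284, 332, 432 and 434 CPM with control Ab and 314, 429, 487 and 502 CPM with anti-BAFF Ab. Anti-BAFF Ab-treated mice 8 and 10 exceeded every control Ab-treated mouse, and mouse 5 lay below 3 of them. The difference was the largest of the 10 genes, with a log2 fold change of 0.23 (95% interval -0.19 to 0.64; unadjusted p = 0.2505, adjusted p = 1.00 in edgeR). It was 0.10 without control Ab-treated mouse 1 and 0.33 without anti-BAFF Ab-treated mouse 5.

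Pparg encodes PPARγ, the nuclear receptor that drives adipocyte differentiation (ENSMUSG00000000440, chromosome 6, 115360951 to 115490399, plus strand). Levels of 37.4, 43.5, 34.7 and 38.8 CPM were measured with control Ab, and 33.9, 33.7, 37.3 and 39.5 CPM with anti-BAFF Ab. It was the steadiest of the 10 genes, with a coefficient of variation of 8.90% over the 8 mice, and mouse 1 did not stand apart. Anti-BAFF Ab-treated mice 5 and 7 were just below the lowest control Ab-treated mouse, and the log2 fold change was -0.10 (95% interval -0.31 to 0.11). It was -0.03 without control Ab-treated mouse 2, the highest mouse, and -0.14 without control Ab-treated mouse 6, the lowest of that group.

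Cebpa encodes C/EBPα, the transcription factor that works with PPARγ in the last steps of adipocyte differentiation and also acts in myeloid cells (ENSMUSG00000034957, chromosome 7, 35119293 to 35121928, plus strand, a gene without introns). The values were 242, 179, 143 and 126 CPM with control Ab (mice 1, 2, 6 and 9) and 177, 180.1, 142 and 126 CPM with anti-BAFF Ab (mice 5, 7, 8 and 10). Mouse 1, the lowest for 5 other members, was here the highest by a wide margin, and the other 3 control Ab-treated mice covered the same range as the 4 anti-BAFF Ab-treated mice. The log2 fold change was -0.14 (95% interval -0.61 to 0.33) and 0.05 without control Ab-treated mouse 1, so its sign also rested on that mouse.

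Fabp4 encodes the fatty acid binding protein of adipocytes, which capillary endothelium makes too (ENSMUSG00000062515, chromosome 3, 10204088 to 10208576, minus strand). It had 595, 737, 679 and 626 CPM in the control Ab-treated mice and 687, 511, 701 and 819.9 CPM in the anti-BAFF Ab-treated mice. Both the lowest value, in mouse 7, and the highest, in mouse 10, were in anti-BAFF Ab-treated mice. The log2 fold change was 0.04 (95% interval -0.28 to 0.37), and -0.02 without control Ab-treated mouse 1.

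Ly6c1 encodes a form of the surface protein Ly6C (ENSMUSG00000079018, chromosome 15, 75044018 to 75048830, minus strand). Control Ab-treated mice had 161, 178, 194 and 189 CPM and anti-BAFF Ab-treated mice 145, 152, 209 and 199 CPM. The anti-BAFF Ab-treated mice split around the control group, with mice 5 and 7 below all control Ab-treated mice and mice 8 and 10 above all of them, and the log2 fold change was -0.03 (95% interval -0.33 to 0.26). Ly6c2 is a near-identical neighbour whose reads the counting may have split with Ly6c1; it was at 7.88 to 11.5 CPM, and each mouse had 13.98 to 21.77 counts of Ly6c1 per count of Ly6c2.

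F3 encodes tissue factor, which starts blood coagulation and marks the regulatory progenitors (ENSMUSG00000028128, chromosome 3, 121723537 to 121735048, plus strand). Its levels were 74.3, 79.4, 95.2 and 138 CPM in the control Ab-treated mice and 78.0, 109.8, 104.5 and 134 CPM in the anti-BAFF Ab-treated mice. Each group had 1 high mouse, mouse 9 with control Ab and mouse 10 with anti-BAFF Ab, and neither group lay above the other. The log2 fold change was 0.14 (95% interval -0.35 to 0.63). It was 0.01 without control Ab-treated mouse 1 or without anti-BAFF Ab-treated mouse 10, and 0.36 without control Ab-treated mouse 9 (unadjusted p = 0.0762 in edgeR).

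**Figure D2:**
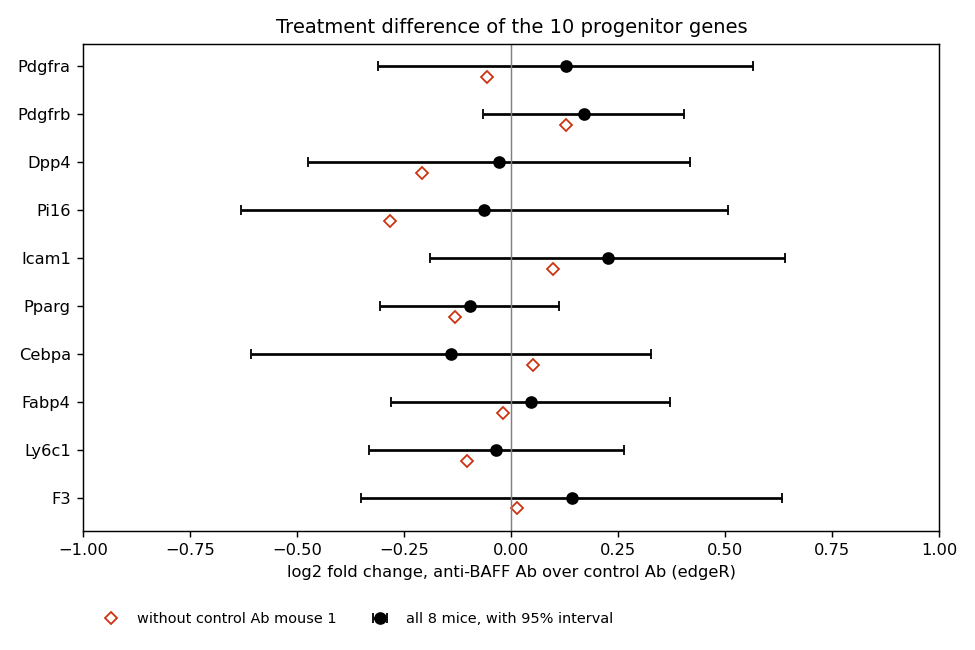
Log2 fold change of the 10 progenitor genes (horizontal axis, anti-BAFF Ab over control Ab, edgeR) with all 8 mice (black points, bars for the 95% interval) and without control Ab-treated mouse 1 (open red diamonds). Every interval includes 0, and without that mouse the values of Pdgfra, Cebpa and Fabp4 lie on the other side of 0.

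The 10 genes were then ordered by FPKM, counts scaled to gene length and library size, since only values per length can be set against each other between genes. Mean FPKM over the 8 mice was 149 for Fabp4, 106.5 for Ly6c1, 92.1 for Icam1, 68.6 for Pi16, 62.3 for Cebpa, 40.2 for F3, 37.3 for Pdgfrb, 37.1 for Pdgfra, 12.7 for Pparg and 11.7 for Dpp4. Neighbours in this order overlapped in their range over the mice, with 1 exception, the step from Pdgfra down to Pparg, where the mean FPKM was 2.93 times higher and the ranges did not overlap. Within mice, Fabp4 was above Ly6c1 in 8 of 8, Icam1 was above Pi16 in 8 of 8, and Pdgfrb was above Pdgfra in 3 of 8. The deposited length of Fabp4 equalled its whole genomic span, introns included, which makes its FPKM lower than one per exon length; this was also so for 8.075% of the genes tested. By mean FPKM, Fabp4 was thus the highest and Dpp4 the lowest of the 10 genes in both groups. This order did not follow the stages. The stem-like gene Pi16 (68.6) was above the committed genes Cebpa (62.3) and Pparg (12.7), and Pparg was above Dpp4 in 7 of 8 mice.

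Between mice, the levels of the 10 genes varied by 1.29-fold (Pparg) to 2.46-fold (Pi16) from the lowest to the highest mouse. The coefficients of variation over 8 mice were 25.7% for Pi16, 24.3% for F3, 23.7% for Cebpa, 20.7% for Dpp4, 20.3% for Icam1 and 19.1% for Pdgfra, and lower for Fabp4 (13.95%), Ly6c1 (13.01%), Pdgfrb (11.03%) and Pparg (8.90%). Each member had 475 to 14866 counts per mouse, and the counting error at the smallest of these counts was 4.59%. The median standard error of the log2 fold change was 0.19 for the 10 genes and 0.17 for all genes tested.

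Control Ab-treated mouse 1 had the lowest level of 5 members and the highest of 1, and it was below the mean for 8 of 10. By contrast, anti-BAFF Ab-treated mouse 10 and control Ab-treated mouse 9 each had the highest level of 3 members, and each of the mice 8 and 10 was below the mean for 1 of 10. The lowest and the highest mice were thus found in both groups. On the log2 scale, mouse 1 deviated from the mean of the 8 mice by -0.79 for Pi16, -0.69 for Pdgfra, -0.58 for Dpp4, -0.47 for Icam1 and -0.41 for F3, and by 0.59 for Cebpa and 0.01 for Pparg. In the same mouse the mean log2 CPM of the marker lists deviated by -0.98 for the mesothelial list, -0.69 for the mural list and -0.54 for the endothelial list, and by 0.18 for the macrophage list.

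**Figure D3:**
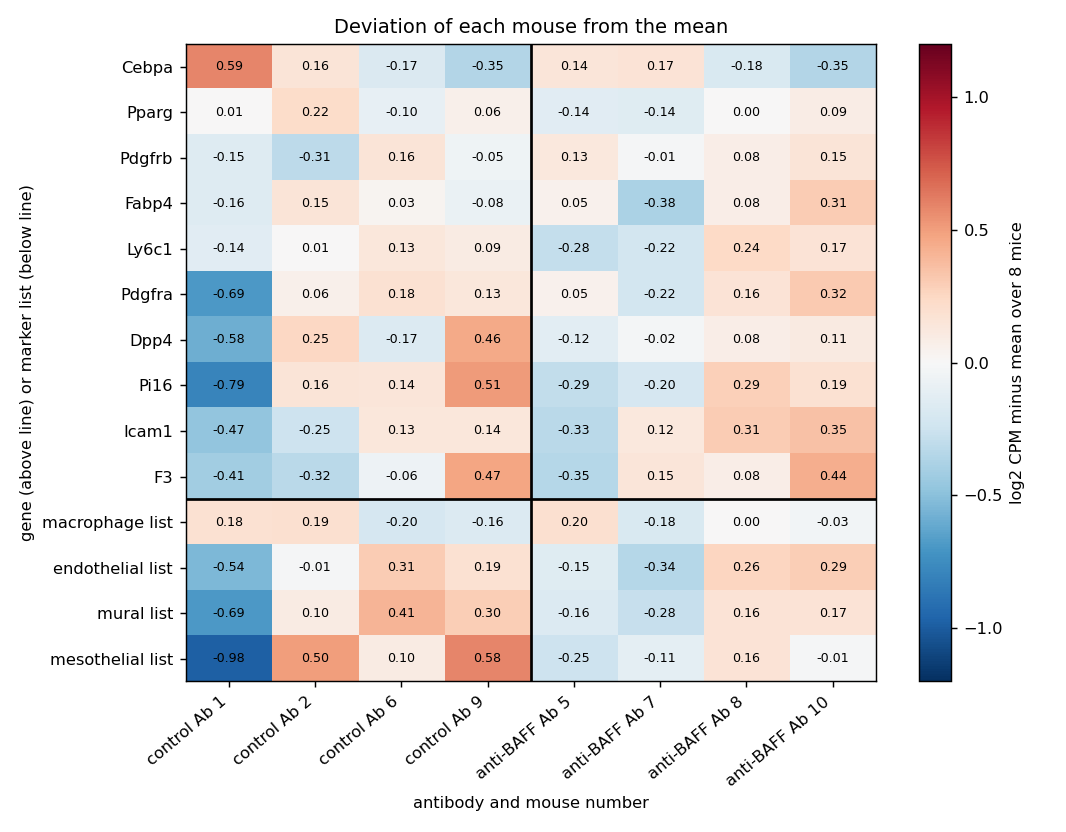
Deviation of each mouse (columns, antibody and mouse number; control Ab left of the vertical line) from the mean of the 8 mice in log2 CPM, for the 10 progenitor genes (above the horizontal line) and for 4 marker lists (below it, mean log2 CPM of 10 genes each). The Cebpa row has the opposite colour to the Pdgfra, Pi16, Icam1 and F3 rows in mice 1, 9 and 10, and mouse 1 has the darkest blue of the mesothelial, mural, Pi16 and Pdgfra rows.

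To ask whether genes of the same stage went together from mouse to mouse, log2 CPM was correlated over the 8 mice for 10 pairs, with two-sided exact permutation tests over all 40320 pairings and Benjamini-Hochberg adjustment over the 10 pairs. The stem-like pair Dpp4 and Pi16 had a Pearson r of 0.893 (exact p = 0.00365, adjusted p = 0.0365) and a Spearman rho of 0.833 (exact p = 0.0154, adjusted p = 0.154). Without control Ab-treated mice 1 and 9, the farthest from the median of Dpp4, r was 0.5125 (exact p = 0.289). Leaving out the farthest mice also narrows the range of Dpp4, which by itself can lower r. The r was 0.738 without mouse 1 alone (exact p = 0.0548), and 0.894 for the deviations from the group means. Within a single group there were too few mice for a correlation.

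Pdgfra and Pi16 had a Pearson r of 0.859 (exact p = 0.0122, adjusted p = 0.0612) and a Spearman rho of 0.6905, and without mouse 1 and mouse 7 an r of 0.3465 (0.585 without mouse 1 alone). The remaining 8 pairs had unadjusted exact p above 0.05. Among them, r was 0.540 for Pparg and Fabp4, 0.532 for Ly6c1 and F3, 0.478 for Pdgfra and Pdgfrb, 0.370 for Pi16 and Pparg, 0.188 for Pdgfra and Pparg, -0.017 for Icam1 and Pparg, -0.140 for Pparg and Cebpa, and -0.475 for Cebpa and Fabp4. Thus Dpp4 with Pi16 was the single pair of the 10 past an adjusted p of 0.05. Pairs outside these 10 were not tested, and some of different stages also had a high r, such as Icam1 and F3 (0.860) and Pi16 and Icam1 (0.738).

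Over all 45 pairs of the 10 genes, given as a description without p since the pairs share libraries and depth, 33 had an r above 0. Cebpa had an r below 0 with each of the other 9 members, from -0.905 with Pi16 and -0.8955 with Pdgfra to -0.140 with Pparg. Of the 36 pairs without Cebpa, 33 were above 0. The exceptions were Pdgfrb with Pparg (-0.624) and with Dpp4 (-0.085), and Icam1 with Pparg (-0.017). Over the 7 mice without control Ab-treated mouse 1, Cebpa was still below 0 with each of the other 9 members, from -0.7899 with F3 to -0.2307 with Pparg, and 31 of the 36 pairs without Cebpa were above 0.

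Dpp4, Pi16 and Cebpa were picked by their r over the 8 mice to show the bases upstream of them. With Cebpa, r was -0.732 for Dpp4 and -0.905 for Pi16, and -0.389 and -0.781 without control Ab-treated mouse 1. Other members also ran opposite to Cebpa, such as Pdgfra (-0.896) and Icam1 (-0.855). Whether the upstream bases have a part in these relations was not tested. The bases are from the RefSeq promoter windows of build GRCm38.p6. The stretches hold only bases that lie outside the gene in both RefSeq and the deposited table, written 5′ to 3′ on the strand of the gene, with the motif TATAAA in capitals. They are Dpp4 chr2:62412316-62412481 on the minus strand, Pi16 chr17:29318632-29318795 on the plus strand and Cebpa chr7:35119043-35119292 on the plus strand.
Dpp4: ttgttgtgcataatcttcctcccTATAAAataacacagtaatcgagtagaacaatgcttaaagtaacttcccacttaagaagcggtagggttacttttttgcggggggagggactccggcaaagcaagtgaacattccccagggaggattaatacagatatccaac
Pi16: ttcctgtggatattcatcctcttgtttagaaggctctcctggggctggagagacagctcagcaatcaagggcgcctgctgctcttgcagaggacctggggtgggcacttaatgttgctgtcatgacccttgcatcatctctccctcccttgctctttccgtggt
Cebpa: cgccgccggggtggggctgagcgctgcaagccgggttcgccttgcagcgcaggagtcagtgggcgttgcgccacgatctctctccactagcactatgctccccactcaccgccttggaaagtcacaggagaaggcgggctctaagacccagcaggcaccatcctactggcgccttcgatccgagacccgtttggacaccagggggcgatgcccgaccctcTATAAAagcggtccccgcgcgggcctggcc

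Windows were found for 8 of the 10 members, and 6 motifs were searched on both strands of the 250 bases upstream of the start. They were the TATA box TATAAA, the CCAAT box, the GC box GGGCGG, the AP-1 motif TGANTCA, the C/EBP motif TTGCNNAA and the nuclear receptor motif AGGTCA, none of which holds another. TATAAA began at -30 from the RefSeq start of Cebpa and at -227 from that of Dpp4, and 12.4% of all 32851 windows hold it. The Pi16 window held CCAAT alone (33.8% of all windows), at -64 from its RefSeq start and outside the bases shown. None of these 6 motifs was shared by the windows of Dpp4 and Pi16. The F3 window held the AP-1 motif at -146 and -135, a motif in 6.75% of all windows, together with 3 GC boxes (32.7%). The Pdgfra window held the C/EBP motif (9.56%) and the Icam1 window a GC box. Of the 2 Ly6c1 windows, the first held the letters TATAAA (at -143), the CCAAT box and the nuclear receptor motif (14% of all windows). The other held none of the 6 motifs. The 3 Pparg windows together held all motifs but AP-1. These matches are a description of letters.

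Because several of these genes are also made by other cells, 12 relations of a member with the mean log2 CPM of a marker list were computed in the same way. Ly6c1 went with the 10 endothelial genes (Pearson r 0.8355, exact p = 0.0125, adjusted p = 0.0749 over the 12; Spearman rho 0.8095), and more closely without control Ab-treated mouse 1 (r 0.916, exact p = 0.00655, adjusted p = 0.0786). Without the 2 mice farthest from the median r was 0.917. With the 8 monocyte genes, which include Ly6c2, Ly6c1 had an r of -0.383. The endothelial genes, among them Cdh5 and Cldn5, summed to 1008 to 1807 CPM with control Ab and 1165 to 1858 CPM with anti-BAFF Ab, and none was at 0 in any mouse.

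Icam1 had an r of 0.748 with the endothelial list (exact p = 0.0361, adjusted p = 0.119), 0.9398 without mice 1 and 7 and 0.5636 without mouse 1. It had an r of -0.650 with the neutrophil list (exact p = 0.0396, adjusted p = 0.119), whose mean was taken over the 6 of its 10 genes that were tested. The relation with the neutrophil list had a rho of -0.524 (exact p = 0.197). Its r was -0.726 without mouse 1 (exact p = 0.0236, adjusted p = 0.142) and -0.833 for the deviations from the group means. Without mouse 1 and mouse 5 it was -0.588 (exact p = 0.269), and mouse 5 had by far the highest neutrophil level. Fabp4 had an r of 0.669 with the endothelial list (exact p = 0.0670, adjusted p = 0.134). This r was 0.659 without mouse 1 alone and 0.131 without mice 1 and 7. Pdgfra had an r of 0.731 with the 10 other pan-progenitor and fibroblast genes (exact p = 0.0112, adjusted p = 0.0749) and a rho of 0.857, and an r of 0.7104 without mouse 1 (adjusted p = 0.188 by exact permutation). None of the 12 relations passed an adjusted p of 0.05.

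The other relations were weaker or shrank when mice were left out. Cebpa had an r of -0.679 with the 14 genes of mature adipocytes (exact p = 0.0669, adjusted p = 0.134), and -0.037 without control Ab-treated mouse 1. The r was 0.502 for F3 and the mesothelial list, 0.347 for Pdgfrb and the mural list, 0.334 for Pparg and the macrophage list, 0.221 for Pparg and the mature adipocyte list and 0.230 for Dpp4 and the epididymis list, with unadjusted exact p above 0.05 in each. The epididymis mean was taken over the 3 of its 10 genes that were tested. For Cebpa and the macrophage list, a pair chosen after the values had been seen, r was 0.6095 (exact p = 0.1003) and rho 0.286.

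The genes whose levels followed each member most closely over the 8 mice were sought among 10115 tested genes with a mean log2 CPM of at least 3, by the highest Pearson r. This is a description without p, and the highest of so many values over the same 8 libraries is always high. Pi16 was followed most closely by Igfbp6 (r 0.997), Lgi4 and Ptprd, Dpp4 by Clip4 (0.991), Perp and Bmp7 (0.964), and Pdgfra by Cavin1 (0.988), Myd88 and Tgfbr3. Bmp7 was also on the list of stem-like progenitor genes. Fabp4 was followed by Apba1 (0.966), Gpihbp1 (0.952) and Cd300lg (0.947), of which Gpihbp1 encodes the protein that carries lipoprotein lipase across capillary endothelium. For Cebpa the genes were Chmp5 (0.994), Thap11 and Ppt2, for Icam1 Acsl4 (0.990), Zbtb38 and Tmem2, and for Ly6c1 Rnf125 (0.971), Il2ra and Gpc6. F3 was followed by Fam171b (0.958), Ino80 and Prss23, Pdgfrb by Cdk17 (0.956), Setd2 and Pank2, and Pparg, with the lowest values, by Tmcc3 (0.891), Mark4 and Pacs1.

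The 10 genes were then set within 7 lists of 88 genes in all that mark the same progenitor stages or act in adipocyte formation. In edgeR's quasi-likelihood test 0 of 88 passed an adjusted p of 0.05, and DESeq2 and limma also called 0. At an unadjusted p of 0.05, 0 were higher and 2 were lower (2.27%, against 1.9% of all genes tested), 48 log2 fold changes were above 0 and 40 below, and the median was 0.02. Without control Ab-treated mouse 1 the number at an unadjusted p of 0.05 was 12 (4 higher and 8 lower, 13.6%, against 10.5% of all genes tested in that fit), still with 0 of 88 past an adjusted p of 0.05.

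The genes past an unadjusted 0.05 were Smpd3 and Gata3. Smpd3, a sphingomyelin phosphodiesterase gene on the stem-like list, was at 112 ± 24.8 CPM with control Ab and 72.9 ± 17.4 CPM with anti-BAFF Ab, which is a log2 difference of -0.62 (SE 0.19; unadjusted p = 0.0102 and adjusted p = 1.00 in edgeR). Gata3 encodes a transcription factor that holds preadipocytes back from differentiation. It was at 12.5 ± 2.66 CPM and 8.83 ± 2.07 CPM, which is a log2 difference of -0.51 (SE 0.20; unadjusted p = 0.0340 and adjusted p = 1.00 in edgeR).

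By list, the median log2 fold change was 0.04 for the 12 pan-progenitor and fibroblast genes (8 above 0, range -0.08 to 0.17), -0.05 for the 15 stem-like genes (5 above 0, -0.62 to 0.16) and 0.02 for the 15 committed preadipocyte genes (11 above 0, -0.14 to 0.39). It was 0.14 for the 12 fibro-inflammatory genes (9 above 0, -0.03 to 0.31) and 0.02 for the 9 genes of F3-positive regulatory progenitors (5 above 0, -0.15 to 0.14). For the 20 adipogenic regulators it was -0.07 (7 above 0, -0.51 to 0.35), and for the 7 PDGF ligands and receptors 0.13 (5 above 0, -0.14 to 0.29). Lists with several genes above 0 thus held no gene past the adjusted threshold, and the fold changes within each list spread to both sides of 0.

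**Figure D4:**
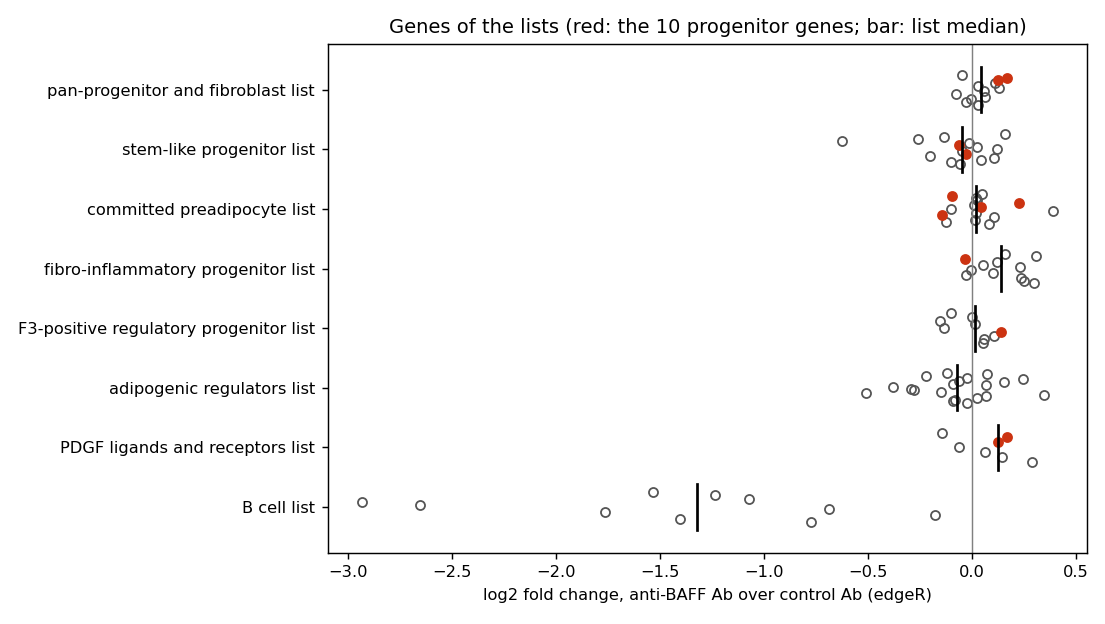
Log2 fold change (horizontal axis, anti-BAFF Ab over control Ab, edgeR) of each gene of the 7 progenitor lists and, for scale, of the 10 B cell genes, with the 10 progenitor genes in red and each list's median as a bar. The progenitor lists lie around 0, with medians from -0.07 to 0.14, and the B cell list has a median of -1.32.

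The genes with the highest mean FPKM on these lists did not pass the test either. Gsn, which encodes the actin-severing protein gelsolin, was at 12598 ± 3577 CPM with control Ab and 11940.2 ± 3011 CPM with anti-BAFF Ab, and Dcn, which encodes the collagen-binding proteoglycan decorin, at 3640.2 ± 1123 and 3800.4 ± 734 CPM. Among committed preadipocyte genes, Lpl, the lipase that frees fatty acids from lipoproteins, was at 2961 ± 677 and 3010.1 ± 293 CPM, and Cd36, a fatty acid transporter, at 2854 ± 698 and 3070.2 ± 316 CPM. Like the macrophage gene Lyz2, both were highest in control Ab-treated mouse 1 (3976 CPM for Lpl and 3899 CPM for Cd36). Which cells of the SVF made them was not tested. The stem-like genes Emilin2 and Anxa3 had log2 fold changes of 0.12 and -0.06.

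Among the fibro-inflammatory genes, those with the highest mean FPKM were chemokine genes. Cxcl1, a chemokine that attracts neutrophils, was at 837 ± 285 CPM with control Ab and 985 ± 270 CPM with anti-BAFF Ab (log2 fold change 0.23), and Ccl7, which attracts monocytes, at 332 ± 65.7 and 395 ± 89.1 CPM (0.25). Log2 fold changes of the F3-positive progenitor genes Cygb and Mgp were 0.11 and 0.00. The early regulator Cebpb was at 756 ± 207 and 744 ± 171 CPM (-0.02), and Klf4, which acts upstream of Cebpb, at 1043 ± 247 and 851 ± 139 CPM (-0.29, unadjusted p = 0.168 in edgeR). Pdgfb and Pdgfd, which encode ligands of PDGF receptors, had log2 fold changes of 0.15 and -0.06.

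Markers of other cells were read beside these values. All pan-progenitor, endothelial, mural, mesothelial, macrophage, monocyte, T cell and mature adipocyte genes were above 0 in all 8 mice. In edgeR's quasi-likelihood test none of the marker genes passed an adjusted p of 0.05, and outside the B cell and neutrophil lists none passed an unadjusted 0.05. Of the 10 B cell genes, 9 were lower at an unadjusted p of 0.05, and their sum was 63.1 to 72.5 CPM with control Ab and 28.2 to 50.4 CPM with anti-BAFF Ab. The 14 mature adipocyte genes summed to 281 to 367 CPM and 308 to 328 CPM, with a median log2 fold change of 0.02. Median log2 fold changes were 0.01 for the endothelial list, -0.11 for the mural list, -0.19 for the mesothelial list, 0.00 for the macrophage list, 0.09 for the monocyte list and -0.17 for the T cell list.

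The sums of the mesothelial list were 374 to 1090 CPM with control Ab and 624 to 817 CPM with anti-BAFF Ab, and 0 of its 10 log2 fold changes were above 0, none of them past an unadjusted 0.05. Macrophage genes summed to 8357 to 13326 CPM and 9552 to 11005 CPM, monocyte genes to 4641 to 5594 CPM and 4526 to 5641 CPM, and T cell genes to 39.9 to 69.8 CPM and 34.8 to 56.3 CPM. Most of the monocyte sum was Fn1 (3949 to 4827 CPM over all mice), which is also on the fibro-inflammatory progenitor list. The sum is therefore largely the level of this gene, and which cells of the SVF made it was not tested. Of the other genes on the monocyte list, F13a1 was at 331 to 609 CPM and Ly6c2 at 7.88 to 11.5 CPM. Neutrophil genes summed to 67.0 to 89.5 CPM with control Ab and 56.6 to 279.8 CPM with anti-BAFF Ab, where 6 of 10 genes were tested, their median log2 fold change was 1.34 and S100a9 was higher at an unadjusted p of 0.05. A single library, anti-BAFF Ab-treated mouse 5, stood apart here, with 42.3 CPM of S100a9 against 1.29 to 3.78 CPM in the other anti-BAFF Ab-treated mice, whose list sums were 56.6 to 85.8 CPM. Genes of the epididymis, which adjoins this fat pad, summed to 13.4 to 1586 CPM and 56.6 to 1644 CPM, highest in control Ab-treated mouse 2 and anti-BAFF Ab-treated mouse 7, and 2 of these 10 genes were at 0 in all mice. Without both of these mice 0 of the 10 progenitor genes passed an unadjusted 0.05.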

How the data were processed

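Bulk RNA of the SVF was analysed for 4 control Ab-treated and 4 anti-BAFF Ab-treated mice, grouped and numbered by their labels. Mouse numbers did not recur between groups, so mice were not paired, and no library batch is given. The members and gene lists were chosen with earlier results of these data known.

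The authors deposited raw counts per gene in a single table, with gene coordinates and a gene length (an other value, in bases) that was used here for FPKM. The submitters' processing notes name the build mm10. The aligner, the counting tool and the annotation are not given in the sources used here, and nothing says whether counting used strand. The table's coordinates overlapped the RefSeq (GRCm38.p6) gene of the same symbol for all 10 members. The methods of the study name FPKM and an adjusted p with no tool.

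The test was edgeR's quasi-likelihood test (version 4.0.16, R 4.3.3) on these counts, with the default expression filter (minimum count 10), TMM factors and treatment as the single term. Benjamini-Hochberg adjustment ran over all 15963 genes. The 95% intervals used the standard error and the quasi-likelihood degrees of freedom. CPM and FPKM used the TMM-scaled library size, and log2 CPM a prior count of 2. Correlations over mice were tested in Python 3.11.15 with scipy 1.17.1 by exact permutation. For 1 listed symbol on more than 1 row, the row with most counts was used. The edgeR test was tried on simulated counts, in which the changed genes differed by far more than the 10 members did here. The correlation formula was tried on known answers.

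The genes named are the 10 members, the 3 genes most like each of them, the 2 genes of highest mean FPKM in the progenitor lists (members apart), some of those in the marker lists, any listed progenitor gene with an unadjusted p under 0.05, and Ly6c2. The alternatives tried were scaling by RLE, by the upper quartile or by library size alone, the robust option, no filter or at least 10 counts in every mouse, leaving out immunoglobulin genes, DESeq2 1.42.0, limma 3.58.1 on log2(FPKM + 1) and log2(FPKM + 0.1), and leaving out mice. Relations, pairs, lists and counts without control Ab-treated mouse 1, and the relation of Cebpa with the macrophage list, were added after seeing the data. Totals of 13562340 to 18548024 counts per mouse cover counting error only. With 4 mice per group, the edgeR p-values set the group difference against the spread between these mice, moderated over all genes. The exact p-values of the correlations come from permutations over all 8 mice.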

Additional observations from a re-analysis of the deposited data

Results flagged for a closer look

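Each gene's CPM and each list's summed CPM was examined in both groups of 4 for a mouse set off from the next by a gap that, as a share of the whole range of the group, exceeded Dixon's 95% critical value. Of 54 groups examined, 3 held such a mouse, where chance gives about 1 in 20, or 2.7. None of the 10 progenitor genes was among the 3. The summed level of the 15 committed preadipocyte genes was 12048 CPM in control Ab-treated mouse 1, the highest of its group, with 8629 to 8978 CPM in the other control Ab-treated mice. Lpl (3976 CPM), Cd36 (3899 CPM) and Plin2 (1445 CPM) made up most of this sum, and in the mean log2 CPM of the 15 genes, which weights them equally, the same mouse was the lowest of its group (-0.09 from the mean of the 8 mice). In the same mouse the 20 adipogenic regulators summed to 2365 CPM, the lowest of the group, with 3544 to 3749.7 CPM in the others. In the anti-BAFF Ab group, mouse 5 had the highest sum of neutrophil genes (279.8 CPM), with 56.6 to 85.8 CPM in the other anti-BAFF Ab-treated mice.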

How the results depend on the processing

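None of the 10 progenitor genes, and none of the 88 listed genes, passed an adjusted p of 0.05 under any alternative run, and adjusted p of the 10 genes ranged from 0.571 to 1.00. Of 110 log2 fold changes of the 10 genes under alternatives that kept all mice or left out the pair with the highest epididymis genes, 105 kept their sign. The others were Dpp4 at 0.0166 with limma on log2(FPKM + 1) and 0.0217 on log2(FPKM + 0.1), and, without control Ab-treated mouse 2 and anti-BAFF Ab-treated mouse 7, Dpp4 at 0.0383, Pi16 at 0.00837 and Ly6c1 at 0.00324. With each mouse left out in turn, 69 of 80 kept their sign. The log2 fold changes then ranged from -0.0563 to 0.21 for Pdgfra, -0.21 to 0.14 for Dpp4, -0.28 to 0.12 for Pi16, -0.27 to 0.04998 for Cebpa, -0.0564 to 0.145 for Fabp4 and -0.14 to 0.0307 for Ly6c1, each with signs both ways. Those of the other members kept their sign, from 0.10 to 0.26 for Pdgfrb, 0.10 to 0.33 for Icam1, -0.14 to -0.03 for Pparg and 0.01 to 0.36 for F3, and Pparg was at -0.02 without mice 2 and 7. The count of members past an unadjusted 0.05 ranged from 0 to 1 (Pdgfrb, without control Ab-treated mouse 6). The count of listed genes past an unadjusted 0.05 ranged from 1, without anti-BAFF Ab-treated mouse 7, to 12, without control Ab-treated mouse 1; in that last fit the share of all genes past an unadjusted 0.05 was 10.5%, against 1.9% with all mice. The cause of these shifts was not tested.

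The correlation of Dpp4 and Pi16 had an adjusted p of 0.0694 (r 0.883) with library size scaling only. It also missed the threshold without the 2 mice farthest from the median and without control Ab-treated mouse 1. Signs turned for Ly6c1 with the monocyte list (r 0.397) and F3 with the mesothelial list (r -0.223) without the 2 farthest mice, and for Dpp4 with the epididymis list (r -0.157) without control Ab-treated mouse 1. The members had at least 475 counts in every mouse.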

Other observations

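The ratio of a stem-like to a committed marker was taken per mouse as log2 of Pi16 FPKM over Icam1 FPKM, as a description with no test. It was -0.76, -0.04, -0.43 and -0.07 in control Ab-treated mice 1, 2, 6 and 9 and -0.41, -0.77, -0.46 and -0.61 in anti-BAFF Ab-treated mice 5, 7, 8 and 10. Icam1 was thus above Pi16 per length in every mouse, the groups overlapped, and the control Ab-treated mice had both the smallest ratio but one and the largest. The ratio of the transcription factors Cebpa and Pparg, as log2 of their FPKM, was 2.86, 2.20, 2.20 and 1.86 with control Ab and 2.55, 2.58, 2.09 and 1.83 with anti-BAFF Ab, highest in mouse 1.

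Without control Ab-treated mouse 1, 12 of the 88 listed progenitor genes had an unadjusted p under 0.05 in edgeR's quasi-likelihood test, and their smallest adjusted p was 0.3355. This was 13.6% of the list, against 10.5% of all genes tested in that fit. These genes were named after their values were seen. The log2 fold change was above 0 for Mmp3 (0.87), a matrix protease gene, Cd36 (0.28), Pdgfb (0.28) and Col15a1 (0.19). It was below 0 for the regulators Klf5 (-0.71), Gata3 (-0.65), Klf4 (-0.47) and Cebpd (-0.32), and for Smpd3 (-0.63), Agt (-0.40), Fmo2 (-0.38) and Pdgfrl (-0.28). In that fit, 6 of the 10 mesothelial genes, 3 of the 10 mural genes and 4 of the 14 mature adipocyte genes were lower at an unadjusted p of 0.05 and the macrophage genes Cd68 (0.28) and Lyz2 (0.23) were higher, and their part in these values was not tested.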
